A study of Mus with 8 samples.

Results

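The 10 genes described here form the core of the circadian clock: Arntl (also called Bmal1), Clock and Npas2, the period genes Per1, Per2 and Per3, the cryptochrome Cry1, the nuclear receptor Nr1d1, and the transcription factors Dbp and Tef. They were chosen by name as clock genes, and 20 of the 56605 probes on the array map to them through a RefSeq accession. Of the 10 genes, 9 were above background and enter the tests, among 16068 genes in all. RNA of 8 subcutaneous tumours was read on 1-colour expression arrays, 1 array a tumour. All tumours grew from Pan02, a mouse pancreatic cancer cell line, in B6 hosts and were taken 36 to 40 days after transplantation. The 4 Control hosts were wild type, and the 4 Mutant hosts were Ext1 flox/flox; S100a4-Cre mice, in which the S100a4 promoter, active in fibroblasts and some other stromal and immune cells, drives loss of a heparan sulfate polymerase. The transplanted cells keep Ext1 in both groups, so a whole tumour mixes altered host cells with unaltered cancer cells. Host age and the time of day at which tumours were taken are not given in the sources used here.

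The clock is a feedback loop that runs in most cells of the body. ARNTL pairs with CLOCK or with its relative NPAS2 and switches on genes that carry E-box elements, among them the Per and Cry genes, Nr1d1, Dbp and Tef. PER and CRY proteins then block that pair, while NR1D1 represses Arntl through ROR elements. DBP and TEF act through D-box elements, which the Per genes also carry. Arntl therefore peaks when Nr1d1, Dbp and the Per genes are low, and a set of tissues taken at different clock times shows the activator arm (Arntl, Clock, Npas2) and the E-box and D-box arm (Per1, Per2, Per3, Nr1d1, Dbp, Tef) moving against each other. Cry1, which responds to both E-box and ROR elements and peaks late, was placed in neither arm.

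Each level is a log2 signal set against the array's 75th percentile, so that levels compare tumours for 1 probe and not genes with each other. Each gene is read from its brightest probe, and differences are Mutant minus Control. No spot was saturated, and on each array 61.5% to 67.2% of probes exceeded background clearly. Of 5 epithelial markers, Krt8, Krt18, Krt19 and Cdh1 were measured and Epcam was not above background on enough arrays. Nothing in the sources says more than that the 8 samples are separate tumours, and in bulk RNA fewer cells of a type cannot be told apart from less RNA per cell. Over all 16068 genes limma called 0 genes between the groups at an adjusted p under 0.05, or 0.0%, and 467 genes, 2.91%, had an unadjusted p under 0.05.

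No clock gene differed between the host groups after adjustment (limma adjusted p = 1 for each of the 9). Of the 9 measured genes 6 were above 0 and 3 below, with a median difference of 0.08 beside 0.01 over all genes. Per2, higher in Mutant tumours, was the 1 gene with an unadjusted p under 0.05, in a direction where 1.87% of all genes passed that mark. The groups overlapped in all 9, against 1.42% of all genes without overlap. In several clock genes, though less so in Per2, Control 4 lay far from the 3 other Control tumours, which was not a planned comparison. The array of Control 4 also stood apart over all probes. It had the lowest 75th percentile signal (575.9) and the highest share of probes above background (67.2%). When arrays were weighted by their scatter it had the lowest weight, 0.23. The part of the array in these values was not tested.

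**Figure D1:**
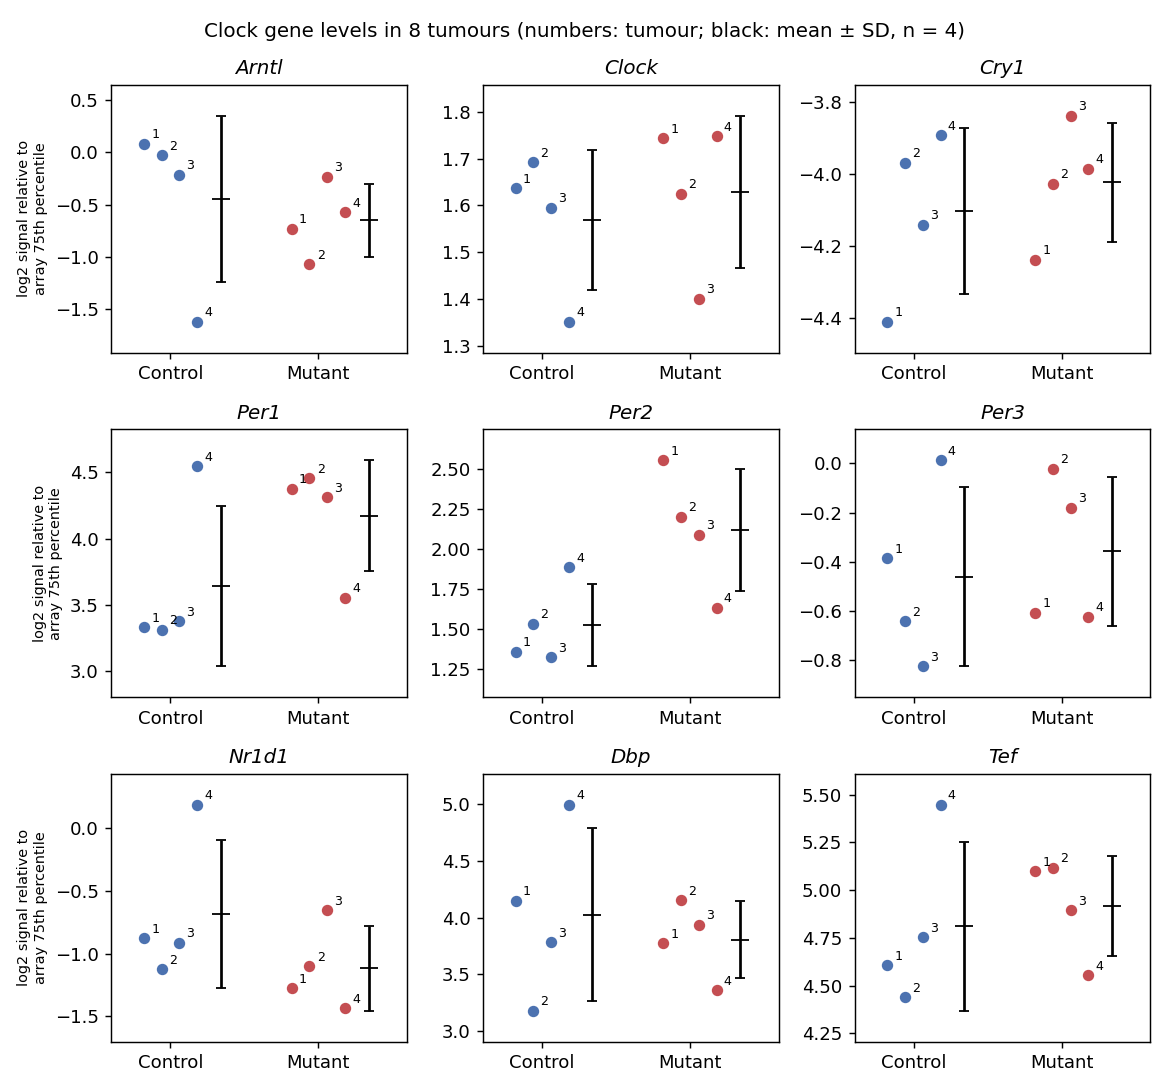
Levels of the 9 measured clock genes (y axis, log2 signal relative to the array's 75th percentile) in the 4 Control and 4 Mutant tumours, each point a numbered tumour and black marks the mean ± SD. Control 4 has the lowest Arntl and Clock and the highest Per1, Per3, Nr1d1, Dbp and Tef of the 8 tumours, while 3 of 4 Mutant tumours lie above every Control tumour for Per2.

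Arntl, the obligate partner in the activating pair, was at 0.08, -0.02, -0.21 and -1.63 in Control 1 to 4 and at -0.73, -1.07, -0.23 and -0.57 in Mutant 1 to 4. Controls 1 to 3 thus held the 3 highest levels, Control 4 the lowest, and the Mutant tumours lay between. The range from lowest to highest was 3.27-fold. The group means were -0.45 ± 0.80 and -0.65 ± 0.35 (SD, n = 4 each), so that Mutant tumours were at -0.21 relative to Control (standard error 0.39, two-sided exact permutation p = 0.657). Without Control 4 the Arntl difference was -0.60, while leaving out Control 1, 2 or 3 gave -0.03, -0.07 and -0.13, and leaving out Mutant 2 or 3 gave -0.07 and -0.35.

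Arntl is covered by 3 probes, and they placed Control 4 differently. The probe A_66_P127371 read -1.97, -2.17, -2.25 and -2.55 in Control 1 to 4 and at -2.64, -2.83, -2.74 and -2.62 in Mutant 1 to 4. On it every Mutant tumour lay below every Control tumour (difference -0.47, unadjusted p = 0.0102, limma adjusted p = 1; two-sided exact permutation p = 0.0286, the smallest that 4 against 4 allows). Among 36824 probes tested by themselves 1.66% showed no overlap and 3.07% had an unadjusted p under 0.05. The third Arntl probe, A_55_P2735445, gave -0.46 with overlapping groups and with Mutant 2 lowest.

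Clock, which encodes the partner of ARNTL and a histone acetyltransferase, varied little. Clock was at 1.64, 1.69, 1.59 and 1.35 in Control 1 to 4 and at 1.74, 1.63, 1.40 and 1.75 in Mutant 1 to 4. Control 4 and Mutant 3 were the low tumours, and the whole range was 1.32-fold. The difference was 0.06 with a standard error of 0.13, and the other Clock probe above background, A_52_P334670, gave -0.18. A smaller spread over the tumours than that of Clock was found in 15.9% of all genes, whereas for Arntl the share was 81.6%. Npas2, which can stand in for Clock, was not well above background on any of the 8 arrays and has no level to compare.

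Per1 and Per2 encode the proteins that, with CRY, shut the activating pair down, and they respond to hormones and cell signals as well as to the clock. Per1 was at 3.33, 3.31, 3.38 and 4.54 in Control 1 to 4 and at 4.38, 4.45, 4.31 and 3.56 in Mutant 1 to 4. Its tumours fell into a low set of Control 1 to 3 with Mutant 4 and a high set of Control 4 with Mutant 1 to 3. The difference was 0.53 with a standard error of 0.33, or 1.45-fold (limma adjusted p = 1; two-sided exact permutation p = 0.2), and it was 0.84 without Control 4. Only 1 probe reads Per1.

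Per2 was at 1.36, 1.53, 1.32 and 1.89 in Control 1 to 4 and at 2.55, 2.20, 2.09 and 1.63 in Mutant 1 to 4. Mutants 1 to 3 were the 3 highest tumours, and Mutant 4 lay below Control 4. The means were 1.53 ± 0.26 and 2.12 ± 0.38 (SD, n = 4 each), 0.59 apart (standard error 0.22) or 1.51-fold (unadjusted p = 0.0262, limma adjusted p = 1; two-sided exact permutation p = 0.0571). The second Per2 probe, A_52_P536869, differed by -0.04, with Control 4 highest and Mutant 4 lowest, so the Per2 difference rests on 1 of 2 probes. That second probe was dim, with means of -4.83 in Control and -4.87 in Mutant tumours, though above background on all 8 arrays. With a tumour left out the difference on the brighter probe ranged from 0.45 to 0.76.

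Per3, a period gene whose loss affects rhythms least, ran from -0.83 in Control 3 to 0.01 in Control 4 and from -0.62 in Mutant 4 to -0.02 in Mutant 2. The difference was 0.10 with a standard error of 0.22, and the other Per3 probe gave -0.10. Cry1, the cryptochrome repressor, ran from -4.41 to -3.89 in Control and from -4.24 to -3.84 in Mutant tumours. Its difference was 0.08 with a standard error of 0.15, and the second Cry1 probe gave -0.25.

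Nr1d1, the REV-ERB alpha receptor that represses Arntl, was at -0.88, -1.12, -0.91 and 0.18 in Control 1 to 4 and at -1.28, -1.10, -0.66 and -1.44 in Mutant 1 to 4. Control 4 stood above all others, and the remaining 7 tumours overlapped. The difference was -0.43 with a standard error of 0.31 (limma adjusted p = 1), and -0.15 without Control 4.

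Dbp, an output factor with one of the widest daily swings known, was at 4.15, 3.18, 3.78 and 5.0 in Control 1 to 4 and at 3.78, 4.16, 3.94 and 3.36 in Mutant 1 to 4. The lowest and the highest tumour were both Control, 3.52-fold apart. The difference was -0.22 with a standard error of 0.37, and it turned to 0.10 without Control 4. Tef, the close relative of Dbp, was at 4.61, 4.44, 4.75 and 5.45 in Control 1 to 4 and at 5.10, 5.12, 4.89 and 4.55 in Mutant 1 to 4. Tef differed by 0.11 with a standard error of 0.24, by 0.32 without Control 4 and by -0.02 without Control 2.

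**Figure D2:**
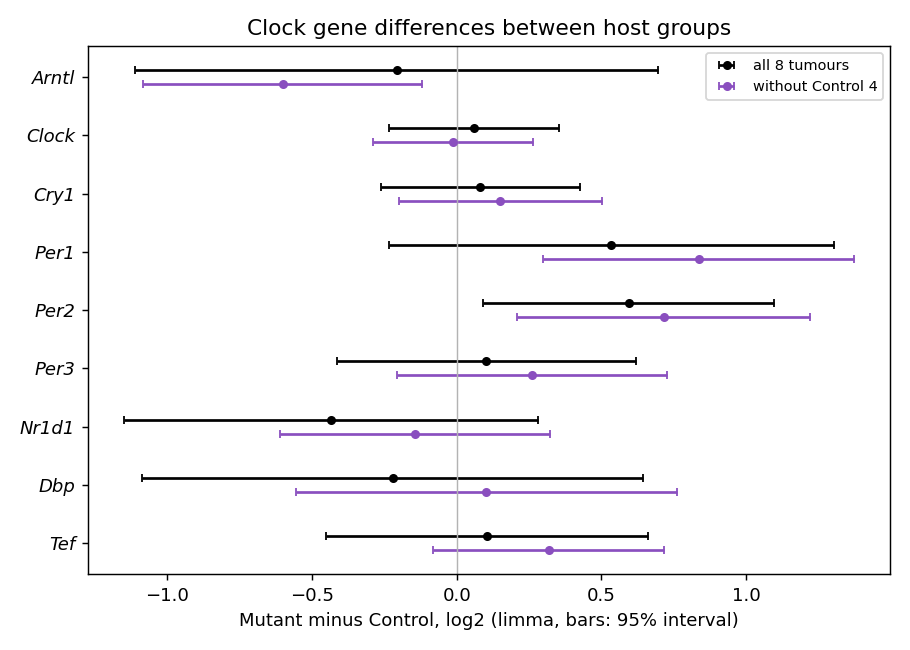
Mutant minus Control difference (x axis, log2) of each clock gene with its 95% interval from limma, with all 8 tumours in black and without Control 4 in purple. With 8 tumours only the interval of Per2 excludes 0, and without Control 4 those of Arntl, Per1 and Per2 exclude 0, while no adjusted p passes in either fit. Control 4 was singled out from the levels of these same genes, so the purple intervals are descriptive.

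Without Control 4, Arntl, Per1 and Per2 were the 3 of 9 clock genes in which the groups did not overlap, Arntl lower and both Per genes higher in Mutant tumours, where 4.28% of all genes did not overlap. The unadjusted limma p was 0.0217 for Arntl, 0.00802 for Per1 and 0.0127 for Per2, and the adjusted p was 0.885 for each. Control 4 was singled out from the levels of these same genes, so the p values without it are descriptive only. For Arntl the separation was narrow, with Control 3 at -0.21 and Mutant 3 at -0.23. Leaving out Mutant 4 left 1 clock gene without overlap, Per2, beside 2.27% of all genes. Leaving out any of the 6 other tumours left 0, beside 2.0% to 7.0% of all genes. All arrays lay on 1 slide in 2 rows, with 2 tumours of each group in each row. Within the first row Arntl differed by -0.93, Per1 by 1.09, Per2 by 0.93, Dbp by 0.30 and Tef by 0.59. Within the second row, which holds Control 4, the same differences were 0.52, -0.03, 0.26, -0.74 and -0.38. Of these 5 genes only Per2 kept its sign, as did Clock, Per3, Cry1 and Nr1d1.

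The arms were then compared tumour by tumour. The level of an arm averages its measured genes after the 8-tumour mean of each gene is subtracted, and the index is the E-box and D-box arm minus the activator arm. The activator arm rests on Arntl and Clock, since Npas2 was not above background. The arm is not scaled by spread, and it follows mainly Arntl (SD over the 8 tumours 0.58, against 0.15 for Clock). In Mutant 3 the centred levels had opposite signs, 0.32 for Arntl and -0.20 for Clock. The index stood at -0.50, -0.73, -0.45 and 1.31 in Control 1 to 4 and at 0.14, 0.52, 0.14 and -0.42 in Mutant 1 to 4. Control 4 had the lowest activator arm, -0.66, and the highest E-box and D-box arm, 0.65, with all 6 genes of that arm above their own means. Control 2, Control 3 and Mutant 4 had 0 of the 6 above their means, and Mutant 3 had all 6. The index thus placed Mutant 4 beside Control 1 to 3, and the other Mutant tumours between these and Control 4.

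**Figure D3:**
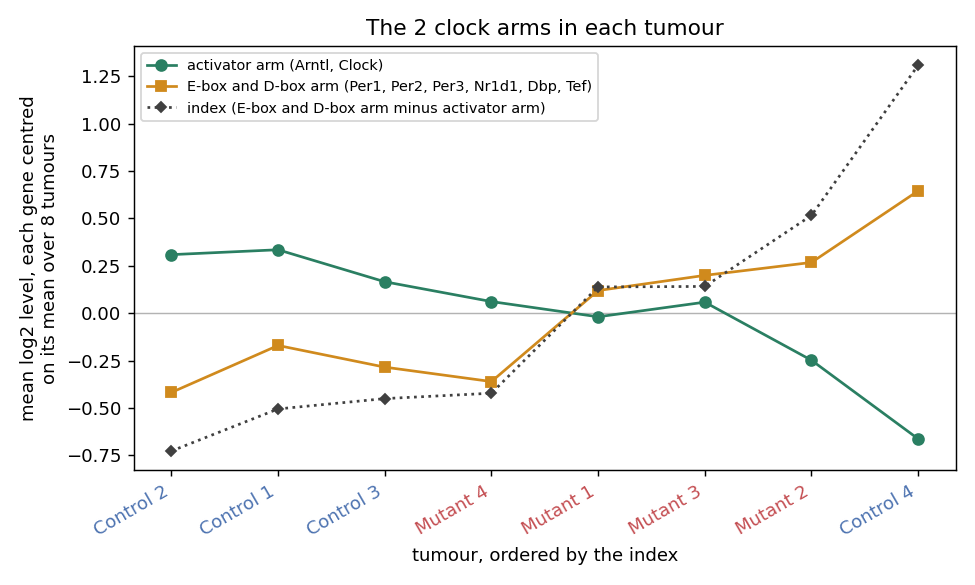
Mean centred log2 level (y axis) of the activator arm, of the E-box and D-box arm, and of their difference, the index, in each tumour, ordered by the index. As the index goes from -0.73 in Control 2 to 1.31 in Control 4 the activator arm goes from 0.31 to -0.66 and the other arm from -0.42 to 0.65. The index is the difference of the arms, so ordering tumours by it favours such opposed ends. Between the ends neither arm moves steadily, with the activator arm at -0.02 in Mutant 1 and 0.06 in Mutant 3.

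The mean index was -0.09 ± 0.94 in Control tumours and 0.09 ± 0.39 among the Mutant ones (SD, n = 4 each), and their difference of 0.19 lay within the spread of either group. Leaving out Control 4 gave 0.65, Mutant 4 gave 0.36, and Control 1, 2 and 3 gave 0.05, -0.02 and 0.07. Leaving out Mutant 2 gave 0.05. It was 0.94 within the first slide row and -0.57 within the second, 0.44 with arrays weighted by their scatter, and 0.87 with the skeletal muscle level as a covariate. The sign of the index difference thus depended on which tumours were compared. The muscle level lay mostly higher in Mutant tumours, so the fit with it as a covariate cannot fully separate muscle from host group.

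Other gene lists also varied over these tumours. Only the muscle level was entered in a fit, as a covariate, and the part of the lists in the clock values was otherwise not tested. All 10 skeletal muscle markers were measured, and their mean centred level was -3.66 to 0.39 in Control and -0.81 to 2.93 in Mutant tumours, lowest in Control 4 and highest in Mutant 2. The level of 7 fibroblast markers ran from -1.27 to 1.46 in Control, with Control 4 the highest of all 8, and from -0.92 to 0.86 in Mutant tumours. Measured T cell markers (5 of 6) and epithelial markers (4 of 5) were also highest in Control 4, at 1.30 and 1.02. Of 5 adipocyte markers 3 were measured, without the defining Adipoq and Plin1, at -1.41 to 0.41 in Control and -0.33 to 2.15 in Mutant tumours. Epidermal markers (4 of 5) were highest in Mutant 3, at 2.63, and at or below 0.48 in the other 7 tumours. The macrophage list (6 of 6) lay between -0.25 and 0.28 in Control and between -0.51 and 0.42 in Mutant tumours, and the endothelial list (5 of 5) between -0.52 and 0.44 and between -0.11 and 0.44. Proliferation genes (8 of 8) were lowest in Control 4, at -0.49, and highest in Control 3, at 0.66.

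Genes that respond to signals which also act on Per1 and Per2 were set beside them. The 10 glucocorticoid-responsive genes had their mean centred level at -0.36, -0.27, -0.10 and 0.11 in Control 1 to 4 and at 0.35, 0.17, 0.17 and -0.07 in Mutant 1 to 4. Their 4 highest tumours were the 4 tumours with the highest Per1 and Per2, and their lowest 4 were Control 1 to 3 and Mutant 4. Among the highest 4 the order differed, since Control 4 was highest for Per1 and lowest of the 4 for this list. The list includes Tsc22d3, which is also counted among the further clock genes. The part of such signals in the Per1 and Per2 levels was not tested. Immediate early genes (10 of 10) did not order the tumours in that way, with Mutant 2 lowest at -0.29 and Mutant 3 highest at 0.32. The 10 hypoxia genes lay between 0.01 and 0.88 in Control and at -0.66, -0.60, 0.48 and -0.74 in Mutant 1 to 4.

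Across the 8 tumours most pairs within the E-box and D-box arm had r above 0, and pairs across the arms had r below 0. Of 12 pairs across the arms all 12 had Pearson's r below 0, with a median of -0.644, and of 15 pairs within the E-box and D-box arm 14 were above 0, with a median of 0.643. With each gene centred on its group's mean, which removes the mean difference between the hosts and not a difference in spread, all 12 were below 0 (median -0.721) and all 15 above (median 0.811). These centred values keep Control 4 and were not computed without it, so they do not show how far they rest on that tumour. The exception with uncentred levels was Per2 with Nr1d1, r = -0.0349. The 1 pair within the activator arm, Arntl with Clock, gave r = 0.385 (two-sided exact permutation p = 0.346, adjusted p = 0.440) and rho = 0.238 (p = 0.582, adjusted p = 0.723). It turned to -0.247 without Control 4 and to -0.393 without Control 4 and Mutant 2, so these genes were not shown to run together. Without Control 4 the medians shrank to -0.421 across the arms and 0.500 within the E-box and D-box arm. Without the 2 tumours farthest from the median of a pair's first gene they were -0.165 and 0.488. Pairs share arrays and tumours, so these counts and medians are descriptive.

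**Figure D4:**
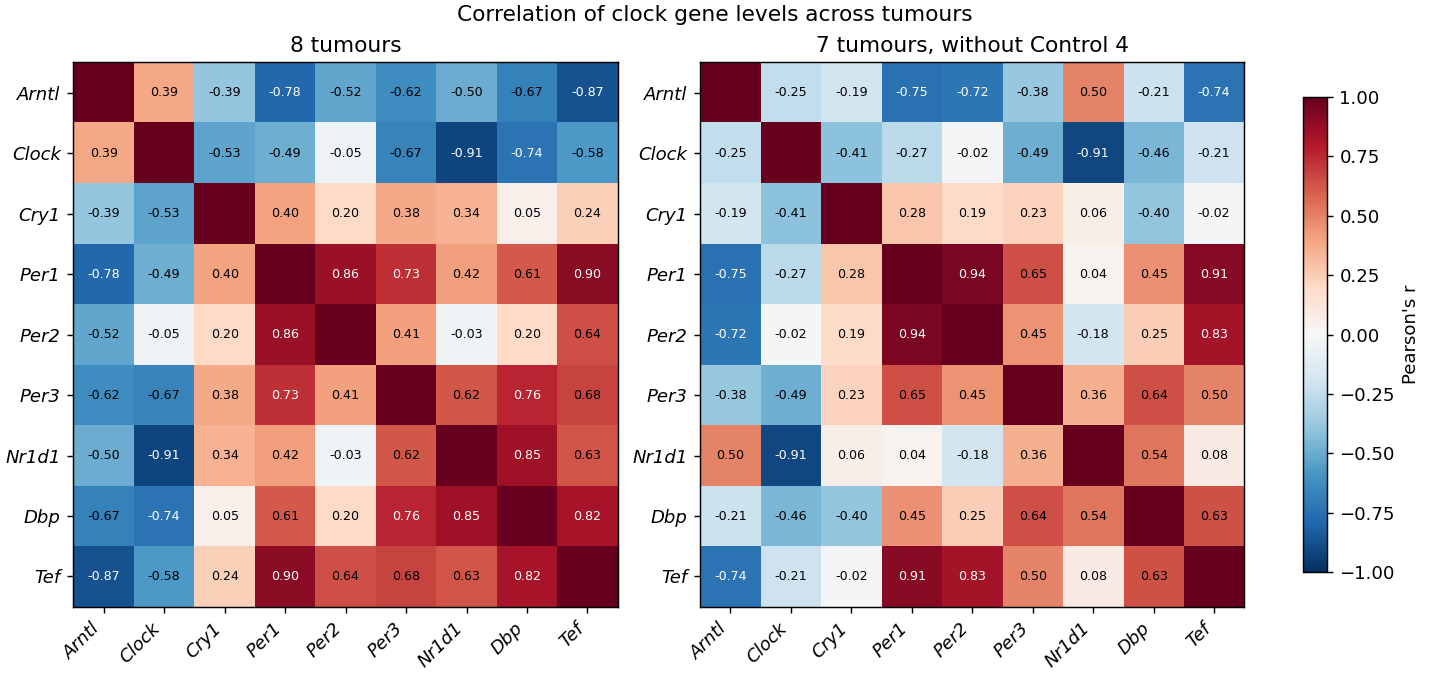
Pearson's r between the levels of each pair of clock genes over all 8 tumours (left) and over 7 tumours without Control 4 (right), from blue at -1 to red at 1. The rows of Arntl and Clock are blue against the E-box and D-box arm on the left, where all 12 values are below 0, and on the right 11 of the 12 remain below 0.

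Of 36 pairs tested by r, 2 passed after Benjamini-Hochberg adjustment over the pairs, by two-sided exact permutation. Per1 and Tef gave r = 0.901 (p = 0.00241, adjusted p = 0.0433) and Spearman's rho = 0.929 (p = 0.00223, adjusted p = 0.0268). Without Control 2 and Control 4, the tumours farthest from the median of Per1, r was 0.896, and with the other Tef probes it was 0.697 and 0.903. Clock and Nr1d1 gave r = -0.915 (exact permutation p = 0.000273, adjusted p = 0.00982), rho = -0.929 (p = 0.00223, adjusted p = 0.0268) and r = -0.886 without Control 4 and Mutant 3. With the second Clock probe, however, Clock and Nr1d1 gave r = -0.123 (exact permutation p = 0.754), so this relation rests on the brighter Clock probe.

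Arntl gave r = -0.784 with Per1 (exact permutation p = 0.022, adjusted p = 0.0991), and by ranks rho = -0.952 (p = 0.00114, adjusted p = 0.0268). The r of Arntl with Per1 was -0.624 without Control 4 and Mutant 2, and -0.830 and -0.812 with the other Arntl probes. Arntl with Tef gave r = -0.872 (exact permutation p = 0.00474, adjusted p = 0.0568), rho = -0.810 (p = 0.0218, adjusted p = 0.147) and r = -0.590 without Control 4 and Mutant 2. With the Arntl probe A_66_P127371 its r with the Tef probes was -0.466 to -0.576. Arntl with Dbp, the textbook pair of opposed phase, gave r = -0.674 (exact permutation p = 0.0677, adjusted p = 0.195), rho = -0.452 (p = 0.267, adjusted p = 0.438) and r = 0.199 without Control 4 and Mutant 2. Leaving out Control 4 alone gave -0.211 and Mutant 2 alone -0.666, so the relation of Arntl with Dbp rests on Control 4. Arntl with Nr1d1 likewise went from -0.498 (exact permutation p = 0.209, adjusted p = 0.342; rho = -0.0476, p = 0.935, adjusted p = 0.935) to 0.638, and to 0.497 without Control 4 alone. Over the 12 pairs across the arms, 7 stayed below 0 when the 2 farthest tumours were left out, and within the other arm 13 of 15 stayed above 0. A slide row holds 4 tumours, too few for a correlation within it.

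Set among all genes, the clock genes' relations to Arntl were not at the extreme. Tef, with the lowest r to Arntl of the members, stood above 4.01% of 16049 genes, Per1 above 8.42%, Dbp above 13.5%, Per3 above 15.9%, Per2 above 20.03%, Nr1d1 above 20.9%, Cry1 above 25.4% and Clock above 61.03%, while 41.4% of all genes had r below 0. Without Control 4 these shares were 7.03% for Tef, 6.70% for Per1, 31.5% for Dbp, 23.0% for Per3, 7.96% for Per2, 79.6% for Nr1d1, 33.0% for Cry1 and 29.7% for Clock. In relation to Dbp, Nr1d1 stood above 97.4% of genes, Tef above 96.6% and Per3 above 93.7%, whereas Clock stood above 8.58% and Arntl above 12.9%. Without Control 4 the share for Arntl was 26.7%, and Nr1d1, Tef, Per3 and Clock stood above 90.5%, 94.8%, 95.2% and 10.1%. The genes outside the clock most like Arntl over the 8 tumours were Sub1 (r = 0.983), Ppa2 (0.981), Ttc33 (0.980), Tusc3 (0.979) and U2af2 (0.979), and the most opposed were Prdm16 (-0.987), Tmc4 (-0.986), Cep85l (-0.986), Fam217b (-0.985) and Itgbl1 (-0.984). Those most like Dbp were Ptms (0.976), Cdhr3 (0.973), Aifm2 (0.971), Krtap16-3 (0.969) and Krtap19-4 (0.969), and those most opposed were Usp33 (-0.985), Ercc6 (-0.984), Ptbp2 (-0.977), Rapgef6 (-0.975) and Fnbp1l (-0.973). These were picked from all genes for their r and carry no test.

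Among 24 further clock and clock-output genes, 21 were measured, 9 of them above 0 and 12 below, with a median difference of -0.01. None passed (limma adjusted p = 1 for each), and 2 had an unadjusted p under 0.05, both lower in Mutant tumours, Bhlhe40 and Rora, in a direction where 1.03% of all genes did. Rorb had no probe named, and Prok2 and Avp were not above background.

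Bhlhe40 encodes DEC1, a repressor that competes for E-boxes and is also induced by low oxygen. It was at 1.06, 1.14, 1.55 and 2.05 in Control 1 to 4 and at 0.81, 0.66, 0.96 and 0.80 in Mutant 1 to 4. Every Mutant tumour lay below every Control tumour, the 1 of the 21 measured genes without overlap, beside 1.42% of all genes (difference -0.64, standard error 0.22, limma adjusted p = 1; two-sided exact permutation p = 0.0286). The difference was -0.15 with the muscle level as a covariate. That level was itself -3.66 to 0.39 in Control and -0.81 to 2.93 in Mutant tumours. The fit therefore cannot fully separate muscle from host group, and the part of muscle was not settled by it. Bhlhe41, its paralog DEC2, differed by -0.36 with overlapping groups.

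Rora, the receptor that activates Arntl through the elements NR1D1 occupies, was at 3.09, 1.88, 0.37 and 2.37 in Control 1 to 4 and at -0.08, 1.02, 0.79 and -0.49 in Mutant 1 to 4. Of the Control tumours 3 lay above every Mutant tumour and Control 3 lay among them. The difference was -1.61 with a standard error of 0.60, or 0.327-fold (unadjusted p = 0.0283, limma adjusted p = 1), and it ranged from -2.13 to -1.23 with a tumour left out.

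None of the other further clock genes named here had an unadjusted p under 0.05. Nr1d2, the REV-ERB beta receptor, differed by 0.04 and the cryptochrome Cry2 by -0.18. The D-box repressor Nfil3 differed by -0.13, and Hlf, the third relative of Dbp and Tef, by -0.80 with a standard error of 1.30 and 3 arrays above background in each group. Ciart, an E-box-driven repressor also called CHRONO, differed by -0.56 and the kinase gene Csnk1e, whose product marks PER proteins for breakdown, by 0.17. The output gene Usp2 differed by 0.49 and Tsc22d3, a target of both clock and glucocorticoids, by 0.53. Tsc22d3 was at 3.89, 3.20, 3.23 and 5.05 in Control 1 to 4 and at 4.76, 4.60, 4.38 and 3.74 in Mutant 1 to 4, with the same 4 tumours highest as for Per1. With a tumour left out, Usp2 ranged from 0.28 without Control 3 to 0.67 without Control 4, and Tsc22d3 from 0.32 without Control 2 to 0.93 without Control 4. Ciart ranged from -0.80 to -0.19, the latter without Control 3, while Csnk1e went to 0.06 and Cry2 to -0.06 without Control 4. Bhlhe41 ranged from -0.56 without Mutant 3 to -0.25 without Mutant 4. Tsc22d3 is also 1 of the 10 glucocorticoid-responsive genes.

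Ext1, the gene deleted in host stroma, was at 3.04, 3.60, 3.64 and 2.02 in Control 1 to 4 and at 2.93, 3.00, 3.41 and 3.24 in Mutant 1 to 4. Since the cancer cells keep Ext1, the Ext1 level is no check of the deletion or of the group labels.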

How the data were processed

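The authors deposited 1 Agilent Feature Extraction file a tumour. Per the file headers these intensity values came from version 10.7.3.1, with background subtracted and spatial trends removed within the array, and no scaling between arrays; the submitters' processing notes name version 9.1. Flag columns (other) were deposited beside them. The authors' deposited value table also holds intensity on a linear scale, equal within 0.01% to the mean processed signal for 99.5% of probes, with column medians of 52.8 to 61.8 and no scaling, centring or ratio. Per the labels, 0.5 ug of RNA was labelled with Cy3.

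Outlier spots (66 to 117 an array) were left out, a probe's spots averaged, and log2 signals centred on each array's 75th percentile (575.9 to 740.7). Probes well above background on at least 4 arrays were kept. Each gene took its probe of highest mean. Names came through unversioned RefSeq accessions and a GRCm38.p6 gene table (1 gene for 32994 probes, several for 0, none for 23611). The array design names another build, so no coordinates are given. limma 3.58.1 in R 4.3.3 compared the groups over all genes, with Benjamini-Hochberg adjustment. Exact permutations ran over 70 arrangements of tumours, where 0.0286 is the smallest p, or over all pairings for correlations, in Python 3.11.15. Arrays give no count depth, and 4 tumours a group limit the precision. The pipeline was tested on simulated data.

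The genes and lists were chosen with earlier results of these data known. The activator arm was planned with Npas2, which was left out as not above background. Named beyond the 10 members were the 8 further clock genes of smallest p, the paralogs and direct partners of members, and the 5 genes at each end of r with Dbp and with Arntl, leaving out predicted models. 1 gene that this rule names is not reported here. Alternatives covered background correction (normexp with offset 50 on median signals, as the files hold no mean spot signal), scaling, dim-probe filters, probe choice, the deposited table, variance trend, array weights, blocks, the muscle level and each tumour left out.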

Additional observations from a re-analysis of the deposited data

Results flagged for a closer look

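Single tumours stood far from the rest of their group in 4 of 24 groups of 4 examined (9 genes, both arms and the index, in 2 host groups). Chance marks about 1 in 20 separate groups, but these are not separate, since the arms average the same genes and the index is their difference, so the count is no measure of excess. For Per1, Control 4 at 4.54 lay far above the other Control tumours and Mutant 4 at 3.56 far below the other Mutant tumours. Control 4 also stood apart in the activator arm, at -0.66, and in the index, at 1.31. The skeletal muscle level was lowest and the fibroblast level highest in Control 4, at -3.66 and 1.46, and their part in these values was not tested.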

How the results depend on the processing

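No clock gene, further clock gene or other gene was called under any of 22 alternatives, with the replicate block among them (0 genes called, 371 at an unadjusted p under 0.05; Per2 then at an unadjusted limma p of 0.0772). The block changed no call, and the values gave no sign that the numbers pair the tumours. Deviations from the group means correlated at 0.0777, -0.314, 0.0513 and -0.314 for numbers 1 to 4. No Control tumour correlated best with the Mutant tumour of its own number. These correlations run over all genes and cannot exclude a pairing that moves few of them. Over all alternatives 148 genes (muscle level as a covariate) to 1475 (array weights) had an unadjusted p under 0.05, beside 467. With a tumour left out 0 genes were called each time, the index ranged from -0.02 to 0.65, and 11 to 12 of the 12 pairs across the arms stayed below 0. Without the 2 tumours farthest from the median 7 of 12 pairs were below 0, and Arntl with Dbp turned to 0.199. Arntl, Per1, Bhlhe40 and Rora were among the genes that kept their sign under every alternative run. Between the slide rows Arntl and Per1 did not keep theirs. Arntl was at -0.93 in the first row and 0.52 in the second, and Per1 at 1.09 and -0.03. Signs turned to -0.056 for Cry1 with normexp, and with the mean of a gene's probes to -0.058 for Clock, -0.084 for Cry1 and -0.00045 for Per3. With the muscle level as a covariate they turned to 0.35 for Dbp, -0.17 for Clock, 0.24 for Nr1d1, -0.021 for Csnk1e, 0.15 for Nfil3, 0.093 for Cry2, 0.27 for Ciart and 0.12 for Hlf. That covariate lay mostly higher in Mutant tumours and was lowest in Control 4, so this fit does not fully separate muscle from host group. Other probes gave -0.18 for Clock, -0.041 for Per2, -0.10 for Per3, -0.25 for Cry1 and -0.0060 for Tef. With a tumour left out the difference ranged from -0.012 to 0.14 for Clock, -0.022 to 0.15 for Cry1, -0.50 to 0.10 for Dbp, -0.020 to 0.26 for Per3, -0.019 to 0.32 for Tef, -1.80 to 0.041 for Hlf, -0.28 to 0.018 for Nfil3 and -0.082 to 0.23 for Nr1d2. The cause of these turns was not tested. Probes by themselves give no arm or pair count, which were not run so. Npas2 was too dim to compare, and Cry1 lay near the dim end.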
